A study of Mus musculus with 13 samples.

Results

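Hypoxia response and glycolysis genes were examined in lumbar intervertebral disc (IVD) and vertebrae of mouse embryos at E13.5. The 34 genes were taken from a list of 12 glycolysis enzymes, 20 targets of hypoxia inducible factor (HIF) and the 2 HIF alpha subunits Hif1a and Epas1. A gene was measured where at least 1 probe set of the array carried its symbol and no other, and its value was the mean of all such probe sets. By this rule 31 of the 34 genes were measured (10 glycolysis enzymes, 19 HIF targets and both alpha subunits) among 18193 genes in all. The glycolysis enzymes Gpi1 and Eno1 and the HIF target Bnip3l had no probe set of their own and have no value here.

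The 13 arrays (Affymetrix mouse expression arrays) held 4 groups. Control embryos were Cre-;Tgfbr2lox/wt, so they lacked Cre and carried 1 floxed allele of the type II TGF-beta receptor. They gave 3 arrays of IVD and 3 of vertebrae, and the series' design says that both tissues came from the same control mice. Mutant embryos were Cre+;Tgfbr2lox/lox, with Cre under the Col2a promoter of cartilage-forming cells, and they gave 4 arrays of IVD and 3 of vertebrae. All 4 groups were collected at the same age, with no treatment. Tissue was cut from frozen sections by laser capture, and 50 ng of total RNA of each sample went through 2 cycles of amplification. The captured IVD was mostly presumptive annulus fibrosus with little notochord. In captured tissue, fewer cells of a type and less RNA per cell cannot be told apart.

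In low oxygen the HIF alpha proteins escape hydroxylation by the Egln enzymes and the degradation that follows, pair with Arnt, and switch on genes through a short DNA element, the hypoxia response element. The targets include most enzymes of glycolysis, glucose and lactate transporters, brakes on mitochondria and growth, and secreted factors such as Vegfa. Cartilage and disc have few or no vessels, and both are known for a high use of glycolysis and for a need of Hif1a. Because HIF alpha is controlled mainly as a protein, its transcript is not a measure of its activity.

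The deposited values are log2 signals with the median of the 13 arrays set to 0 for each probe set. A value therefore gives how far an array lay from the median array for that gene, and levels of different genes cannot be compared. A difference of 1 on this scale is a change of 2-fold. Signal over background is not known from these values. Differences were tested with limma in 1 fit of the 4 groups over all 18193 genes, with Benjamini-Hochberg adjustment over all of them, and a gene was called at an adjusted p under 0.05.

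Several arrays stood apart. The list mean of 9 liver markers reached 4.97 and 4.78 in vertebrae and IVD of control number 1, was 2.51 and 3.27 in numbers 3 and 4 of mutant IVD, and stayed at or under 0.22 in all other arrays. Erythroid markers (8 genes) were high in the same arrays as the liver markers. They averaged 3.9 and 3.7 in vertebrae and IVD of control number 1, 1.6 and 2.1 in mutant IVD 3 and 4, and at most 0.22 elsewhere. Neuron markers (14 genes) averaged 2.24 in control vertebrae 3 and 2.95 in mutant IVD 3, and at most 0.58 elsewhere. Skeletal muscle markers (10 genes) averaged 2.15 in control IVD 1 and 2.18 in mutant IVD 4, against at most 0.57 in the other arrays, and the part of muscle transcripts in the results below was not tested. The 8 IVD markers (Pax1, Pax9, Fmod, Aspn, Gdf5, Col14a1, Tgfb3 and Scx) averaged -1.33 to 0.01 in the vertebrae arrays. They averaged 0.51 to 1.59 in the IVD arrays except mutant IVD 3, which read -1.23, a value within the range of vertebrae. The other mutant IVD arrays read 0.51 to 1.34. Of these markers, the study lists Fmod, Aspn, Gdf5 and Col14a1 as lower in mutant IVD. The part of genotype in the value of mutant IVD 3 was not tested. Mutant vertebrae 1 had the widest spread over all probe sets (SD 0.743, against 0.334 to 0.524). The control probe sets of Gapdh, 3′ minus 5′ end, read 1.14, 1.10 and 1.40 in mutant vertebrae 1, mutant IVD 1 and mutant IVD 4. All other arrays read at most 0.49. For Actb the same 3 arrays read -0.32, -0.80 and 0.72, against -1.34 to 0.68 in the others. The part of RNA quality in the results below was not tested. Xist was high and Y-linked genes low in all control arrays, mutant vertebrae 3 and mutant IVD 3, while the other 5 mutant arrays showed the reverse, so genotype and sex mostly ran together. Tgfbr2 itself read -0.18 to 0.29 in control and -0.60 to 0.48 in mutant arrays, and did not pass the test in either tissue (0.11 ± 0.17 (SE) in IVD and -0.24 ± 0.18 (SE) in vertebrae; limma adjusted p = 1 and 0.999). Where its probe sets lie relative to the floxed part is not known here, so this checks nothing about the deletion.

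Of the 34 genes, 30 had a promoter entry in RefSeq (assembly GRCm38.p6), and the 250 bases before each start were searched on both strands for the 2 forms of the core of the hypoxia response element, ACGTG and the variant GCGTG. The former is part of the E-box, CACGTG, which other factors bind. Either core was in at least 1 window of 28 of the 30 genes (93.3%), against 41.5% of 27025 genes. The member windows were rich in CG pairs (median 14, against 6 over all windows), and among all windows with at least 14 such pairs the share with either core was 67.3%, against 79.5% of the 44 member windows. A match of 5 bases is a description of the sequence and not a site of binding. Slc2a3, Epas1, Bnip3l and Ndrg1 had no entry. The windows of 4 genes described below are printed, and no result below uses their cores. Pfkp differed most firmly between the tissues. Pfkfb4 had the opposite order of the tissues in the genotypes, without passing the test. Ldha and Bnip3 are textbook targets that were higher in IVD in all 3 pairs of control arrays with the same number. Each window is written 5′ to 3′ on the strand of its gene and ends 1 base before the start, with the cores in capitals. Pfkp is at chr13:6648772-6649021 (minus strand), Pfkfb4 at chr9:108991652-108991901 (plus), Ldha at chr7:46845554-46845803 (plus) and Bnip3 at chr7:138909507-138909756 (minus).
Pfkp: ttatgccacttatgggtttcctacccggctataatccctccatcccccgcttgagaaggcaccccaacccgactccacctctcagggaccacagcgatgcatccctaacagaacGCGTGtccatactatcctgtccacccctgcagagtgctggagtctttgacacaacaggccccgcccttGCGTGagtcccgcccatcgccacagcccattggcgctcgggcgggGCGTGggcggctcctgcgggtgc
Pfkfb4: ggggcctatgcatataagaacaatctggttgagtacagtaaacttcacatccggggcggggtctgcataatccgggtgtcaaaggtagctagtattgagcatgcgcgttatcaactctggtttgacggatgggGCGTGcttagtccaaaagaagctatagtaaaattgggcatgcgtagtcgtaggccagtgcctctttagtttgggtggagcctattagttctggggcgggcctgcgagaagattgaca
Ldha: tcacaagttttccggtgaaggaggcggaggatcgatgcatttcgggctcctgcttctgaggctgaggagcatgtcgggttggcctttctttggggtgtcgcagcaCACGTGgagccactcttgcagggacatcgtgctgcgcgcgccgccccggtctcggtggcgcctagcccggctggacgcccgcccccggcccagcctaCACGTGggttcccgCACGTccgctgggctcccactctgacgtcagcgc
Bnip3: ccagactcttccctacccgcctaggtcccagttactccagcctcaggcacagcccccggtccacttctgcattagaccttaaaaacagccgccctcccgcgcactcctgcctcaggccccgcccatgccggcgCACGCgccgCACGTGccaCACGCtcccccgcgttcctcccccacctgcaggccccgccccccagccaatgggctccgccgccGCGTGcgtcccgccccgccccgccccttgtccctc
Pfkp holds 3 separate GCGTG cores on the printed strand, and Pfkfb4 holds 1. Ldha and Bnip3 hold the full CACGTG as well as further cores. Each has 5 matches, but a CACGTG counts once per strand, so separate sites are fewer than 5.

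The question of the first comparison was which genes differ between the tissues of normal embryos. Glycolysis enzymes ran higher in IVD of the controls: the difference was above 0 for 10 of 10 enzymes, with a median of 0.37, while 13 of 19 HIF targets were above 0 with a median of 0.29. Over all genes 47.8% were above 0, with a median of -0.01. Of the 20 members with several probe sets, 12 had all of them on 1 side of 0. Among the enzymes, Aldoc (-0.18 and 0.26) and Pfkl (0.27, 0.31 and -0.21) had probe sets on both sides. None of the 31 members was called, and the share called over all genes was 0%. At an unadjusted p under 0.05 stood 4 of 31 (Pfkp, Car9 and Ddit4 higher and Pfkfb4 lower in IVD), against 2.68% of all genes.

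The control arrays with the same number deviated together (r over genes 0.83, 0.61 and 0.61), and the design gives both tissues from the same mice, so the differences were also taken within each pair. Of the members, 19 of 31 were higher in IVD in all 3 pairs (8 of 10 glycolysis enzymes, 10 of 19 HIF targets, and Hif1a), against 17.6% of all genes. Only Pfkfb4, P4ha2 and Epas1 were lower in all 3, against 17.5% of all genes. When the fit took each pair, read as 1 mouse, as a random block, 14 of 31 members had an unadjusted p under 0.05 and were higher in IVD. The same held for 7.14% of all genes. No member was called, while 0.363% of all genes (66) were. The members nearest to the threshold in that fit were Pfkp (adjusted p = 0.0948) and Bnip3 (adjusted p = 0.14). Without the control pair with liver transcripts (pair 1), 24 of 31 members were above 0 with medians of 0.38 for the enzymes and 0.32 for the HIF targets. Without control vertebrae 3, the control array with neuronal transcripts, 22 of 31 were above 0 with medians of 0.24 and 0.17. Without control IVD 1, the control array with muscle transcripts, 7 of 10 enzymes and 16 of 19 HIF targets were above 0, with medians of 0.26 and 0.16. A fit that held the neuron marker mean as a covariate gave medians of 0.18 and 0.14.

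**Figure D1:**
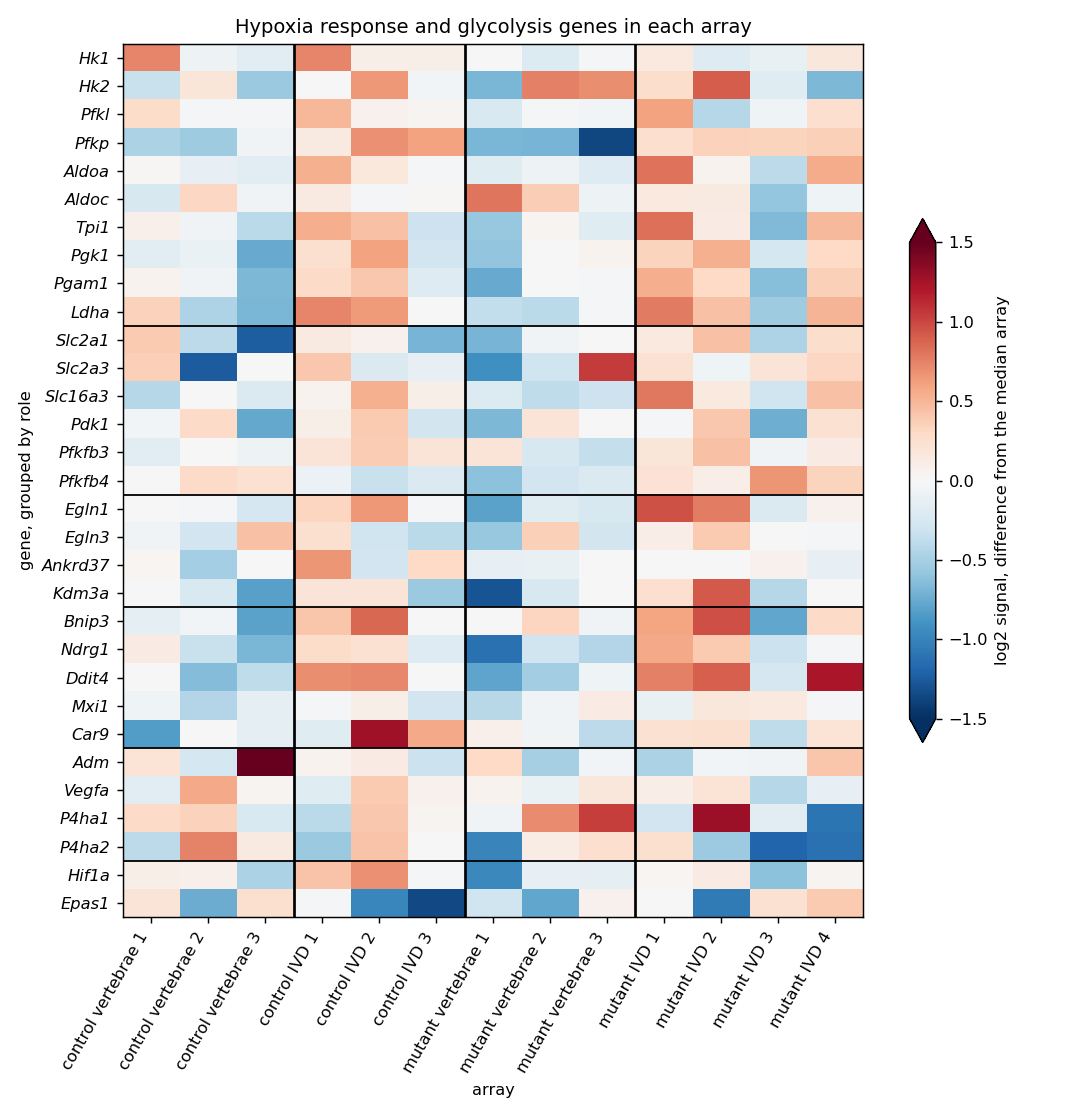
Each row is 1 of the 31 measured genes in the order glycolysis enzymes, transport and flux regulators, oxygen sensing, stress targets, secreted factors and collagen hydroxylases, and HIF alpha subunits; each column is 1 array, and the colour is its log2 difference from the median array. Most enzyme rows are red in control IVD 1 and 2, likewise in mutant IVD 1 and 4, and blue in control vertebrae 3 and mutant IVD 3, while Pfkp is above 0 in all 7 IVD arrays and below 0 in all 6 vertebrae arrays.

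In mutant embryos the same tissue comparison gave 26 of 31 members above 0, with medians of 0.40 for the glycolysis enzymes (8 of 10 above 0) and 0.22 for the HIF targets (16 of 19), against 50.1% of all genes and a median of 0.00. At an unadjusted p under 0.05 stood 6 of 31 (Pfkp, Pfkfb4, Ddit4, Egln1, Ndrg1 and Slc16a3, each higher in IVD), against 8.09% of all genes. None was called, against 0.0275% of all genes (5). Only Pfkp and Pfkfb4 had every mutant IVD array above every mutant vertebrae array, against 4.08% of all genes. Without mutant IVD 3, the array whose IVD markers read like vertebrae, 27 of 31 were above 0, and the medians were 0.60 and 0.36. Pfkp and Ddit4 were called in that fit, among 109 of all 18193 genes. Without mutant vertebrae 1 the medians were 0.18 and 0.13, with 24 of 31 above 0, and without mutant IVD 1 they were 0.22 and 0.22. Without mutant IVD 4, the mutant array with muscle transcripts, 26 of 31 were above 0 with medians of 0.32 and 0.19.

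Averaged over both genotypes, a comparison added after the data were seen, IVD was above vertebrae for 25 of 31 members (9 of 10 enzymes and 15 of 19 HIF targets), with medians of 0.38 and 0.27, against 48.3% of all genes and a median of -0.01. Pfkp was called, 1 of 31, against 0.275% of all genes (50). At an unadjusted p under 0.05 stood 9 of 31 (Pfkp, Pgk1, Ldha, Slc16a3, Pfkfb3, Egln1, Ndrg1, Ddit4 and Car9, all higher in IVD), against 8.78% of all genes. The control and mutant tissue comparisons use separate arrays, and both enter this average.

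**Figure D2:**
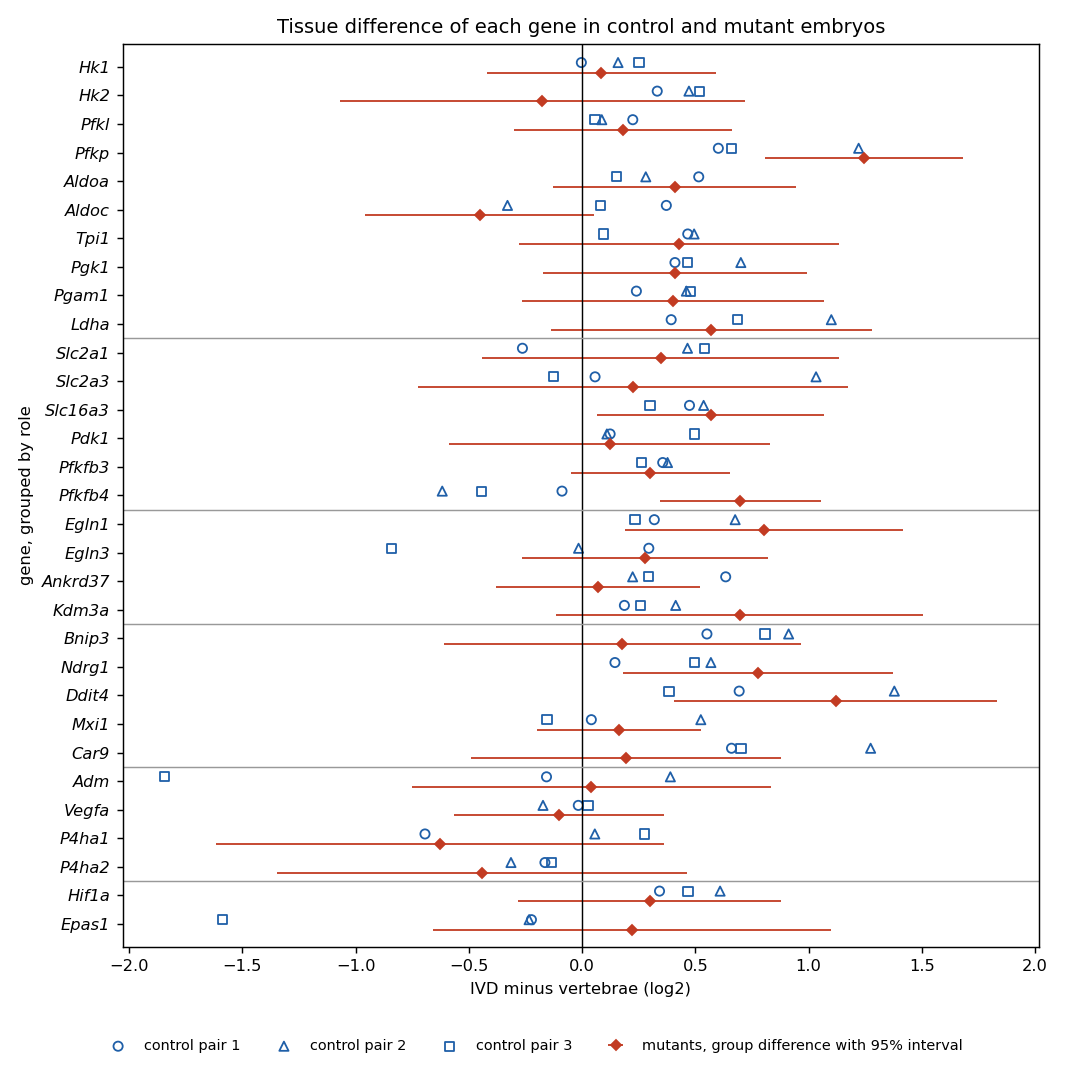
For each measured gene, the IVD minus vertebrae difference (log2) is drawn for the 3 control pairs of the same number (blue outlines) and for the mutant group means with the 95% interval of the limma fit (red). Pfkp lies to the right of 0 in every control pair and with its whole mutant interval, while Pfkfb4 lies to the left in the controls (from -0.62 to -0.09) and to the right in the mutants (0.70).

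Pfkp, the platelet-type phosphofructokinase, catalyses the first committed step of glycolysis and gave the clearest tissue difference. It read 0.13, 0.68 and 0.60 in control IVD and -0.47, -0.54 and -0.06 in control vertebrae, and 0.25, 0.35, 0.34 and 0.35 in mutant IVD and -0.69, -0.70 and -1.37 in mutant vertebrae. Every IVD array of either genotype lay above every vertebrae array of either genotype, which held for 0.341% of all genes. The averaged difference was 1.04 ± 0.15 (SE), or 2.05-fold (95% interval 0.72 to 1.35 on the log2 scale, limma adjusted p = 0.0233). In the controls it was 0.83 ± 0.21 (SE, limma unadjusted p = 0.00225, adjusted p = 1), and in the mutants 1.24 ± 0.20 (SE, limma unadjusted p = 4.46e-05, adjusted p = 0.0626). The 3 probe sets did not move alike: their averaged differences were 1.81, 1.13 and 0.17, and with the median of the probe sets in place of their mean the call was lost (adjusted p = 0.148). The call was also lost without the 4 arrays with liver transcripts (adjusted p = 0.0632), with quantile normalization (0.0617), with the number of the array as a fixed block, a fit to which mutant IVD 4 adds nothing because no other array has its number (0.0817), and without any 1 of 7 arrays (control vertebrae 1 or 2, control IVD 2 or 3, mutant IVD 1, 2 or 4; 0.0541 to 0.0812).

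Ldha, which turns pyruvate into lactate, and Pgk1, which yields ATP later in the pathway and lies on the X chromosome, also ran higher in IVD. Ldha read 0.74, 0.64 and 0 in control IVD and 0.34, -0.46 and -0.69 in control vertebrae, and 0.78, 0.44, -0.53 and 0.51 in mutant IVD and -0.37, -0.41 and -0.03 in mutant vertebrae. Pgk1 read 0.24, 0.60 and -0.29 in control IVD and -0.17, -0.10 and -0.76 in control vertebrae, and 0.34, 0.53, -0.26 and 0.30 in mutant IVD and -0.59, -0.01 and 0.05 in mutant vertebrae. Both were higher in IVD in all 3 control pairs, by 0.39, 1.10 and 0.69 for Ldha and 0.41, 0.70 and 0.46 for Pgk1, but the groups overlapped in both genotypes. Their averaged differences were 0.65 ± 0.24 (SE) and 0.47 ± 0.20 (SE), with limma adjusted p = 0.404 and 0.511. In mutant IVD the lowest value of each gene was that of mutant IVD 3.

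The remaining glycolysis enzymes behaved less alike. Hk2, an inducible hexokinase, read 0, 0.66 and -0.04 in control IVD and -0.33, 0.18 and -0.56 in control vertebrae, and 0.26, 0.91, -0.18 and -0.67 in mutant IVD and -0.69, 0.75 and 0.70 in mutant vertebrae. It was higher in IVD in all 3 control pairs (0.33, 0.47 and 0.52), but in the mutants the groups overlapped widely and the difference was -0.18. Aldoc, an aldolase best known from brain, read 0.13, -0.02 and 0.02 in control IVD and -0.24, 0.31 and -0.06 in control vertebrae, and 0.15, 0.13, -0.58 and -0.07 in mutant IVD and 0.80, 0.37 and -0.08 in mutant vertebrae. Its tissue difference was 0.04 in controls and -0.45 in mutants, where only mutant vertebrae 1 and 2 lay above every mutant IVD array. Aldoc and Hk2 were the 2 enzymes below 0 in the mutant comparison. The other enzymes, Hk1, Pfkl, Aldoa, Tpi1 and Pgam1, lay 0.12 to 0.39 higher in control IVD and 0.09 to 0.43 higher in mutant IVD, all with overlapping groups and none called. Aldoa was read only by probe sets of the x_at kind, which can bind related transcripts.

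Among the transporters and flux regulators, the bifunctional enzyme Pfkfb4, which sets the amount of the sugar phosphate that activates phosphofructokinase, was lower in IVD than in vertebrae of the controls and higher in IVD of the mutants, without passing the test in either. It read -0.09, -0.33 and -0.21 in control IVD and 0, 0.29 and 0.23 in control vertebrae, and 0.22, 0.09, 0.66 and 0.34 in mutant IVD and -0.62, -0.28 and -0.22 in mutant vertebrae. Control IVD lay below control vertebrae in all 3 pairs (-0.09, -0.62 and -0.44), whereas every mutant IVD array lay above every mutant vertebrae array. The tissue difference was -0.38 ± 0.17 (SE, limma unadjusted p = 0.0486, adjusted p = 1) in controls and 0.70 ± 0.16 (SE, limma unadjusted p = 0.00105, adjusted p = 0.19) in mutants. The difference between these, the tissue by genotype interaction, was 1.08 ± 0.24 (SE, limma unadjusted p = 0.000683, adjusted p = 1), the second smallest p of all 18193 genes in that test, and it was not called. Pfkfb4 has 1 probe set, and its interaction was 0.94 to 1.17 over all alternatives run, with an adjusted p of at least 0.74.

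The glucose transporters did not separate the groups. Slc2a1 (Glut1), a widely used glucose carrier, read 0.13, 0.07 and -0.69 in control IVD and 0.40, -0.40 and -1.23 in control vertebrae, and 0.14, 0.44, -0.46 and 0.26 in mutant IVD and -0.69, -0.06 and -0.01 in mutant vertebrae. Slc2a3 (Glut3), a high-affinity carrier, read 0.41, -0.21 and -0.12 in control IVD and 0.35, -1.25 and 0.01 in control vertebrae, and 0.23, -0.07, 0.19 and 0.31 in mutant IVD and -0.92, -0.30 and 1.05 in mutant vertebrae. For both the 4 group means differed by less than the largest SD within a group, and neither was higher in IVD in all 3 control pairs. The lactate exporter Slc16a3 (Mct4) read 0.05, 0.54 and 0.09 in control IVD and -0.43, 0 and -0.21 in control vertebrae, and 0.79, 0.14, -0.30 and 0.44 in mutant IVD and -0.20, -0.38 and -0.31 in mutant vertebrae, and was higher in IVD in every control pair by 0.47, 0.54 and 0.30. Its averaged difference was 0.50 ± 0.17 (SE, limma unadjusted p = 0.0115, adjusted p = 0.344), with mutant IVD 3 again the lowest of its group. Pdk1, which keeps pyruvate out of the mitochondria, and Pfkfb3, the kinase-rich relative of Pfkfb4, were higher in IVD in all 3 control pairs, by 0.12, 0.11 and 0.50 and 0.36, 0.38 and 0.26. The 2 probe sets of Pfkfb3 had opposite averaged differences, 0.90 and -0.27. Pdk1 had an averaged difference of 0.18, and its probe sets gave -0.23 to 0.48. Without the 2 arrays with neuronal transcripts, the control tissue difference of Pdk1 was -0.06.

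**Figure D3:**
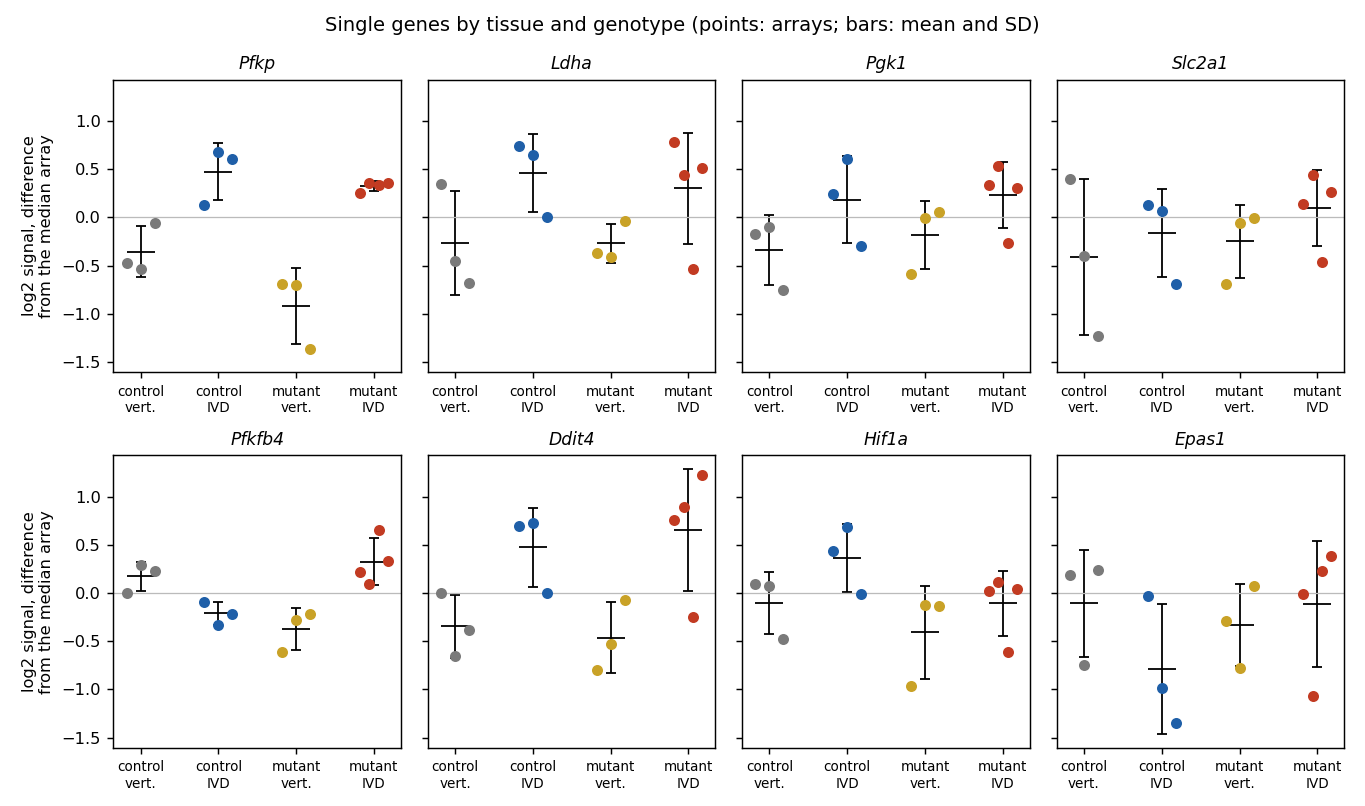
Points are arrays of control vertebrae (grey, 3), control IVD (blue, 3), mutant vertebrae (yellow, 3) and mutant IVD (red, 4), with the group mean and SD in black, on the log2 scale as the difference from the median array; "vert." stands for vertebrae. Pfkp separates the tissues in both genotypes, the means of Pfkfb4 have the opposite order in the genotypes, and Ldha, Pgk1, Slc2a1, Ddit4, Hif1a and Epas1 overlap between tissues.

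Of the oxygen sensors, the prolyl hydroxylase Egln1, which marks HIF alpha for degradation, was higher in IVD in all 3 control pairs (0.32, 0.68 and 0.23) and had an averaged difference of 0.61 ± 0.21 (SE, limma unadjusted p = 0.0124, adjusted p = 0.35). Its paralogue Egln3 read 0.24, -0.30 and -0.40 in control IVD and -0.05, -0.28 and 0.44 in control vertebrae, and 0.10, 0.39, 0 and -0.03 in mutant IVD and -0.57, 0.36 and -0.27 in mutant vertebrae, with no order of the tissues in either genotype. Kdm3a, a histone demethylase induced by HIF, read 0.19, 0.19 and -0.56 in control IVD and 0.0049, -0.22 and -0.82 in control vertebrae, and 0.25, 0.92, -0.43 and 0 in mutant IVD and -1.30, -0.24 and 0.01 in mutant vertebrae, and its control pairs were all higher in IVD (0.19, 0.41 and 0.26). The lowest Kdm3a value was that of mutant vertebrae 1, and the mutant tissue groups overlapped. Ankrd37 was also higher in IVD in each control pair (0.63, 0.22 and 0.29), with an averaged difference of 0.23.

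The targets that restrain growth and mitochondria held some of the largest tissue differences. Ddit4 (Redd1), an inhibitor of mTOR signalling, read 0.69, 0.72 and 0 in control IVD and 0, -0.65 and -0.38 in control vertebrae, and 0.76, 0.89, -0.25 and 1.22 in mutant IVD and -0.80, -0.52 and -0.07 in mutant vertebrae. Apart from mutant IVD 3, every mutant IVD array lay above every mutant vertebrae array. The averaged difference was 0.97 ± 0.24 (SE, limma unadjusted p = 0.00163, adjusted p = 0.143). Without mutant IVD 3 it was 1.12 and was called (limma adjusted p = 0.0153). In that fit 206 of all 18193 genes were called, against 50 with all arrays. Bnip3, a receptor for the removal of mitochondria, read 0.41, 0.87 and 0 in control IVD and -0.14, -0.05 and -0.81 in control vertebrae, and 0.59, 0.97, -0.78 and 0.28 in mutant IVD and -0.01, 0.32 and -0.06 in mutant vertebrae. In the control pairs Bnip3 was higher in IVD by 0.55, 0.91 and 0.81, while in the mutants the difference was 0.18 ± 0.36 (SE). The difference between the tissue differences was -0.58 ± 0.53 (SE, limma unadjusted p = 0.296, adjusted p = 1). Car9, a carbonic anhydrase at the cell surface, read -0.18, 1.27 and 0.57 in control IVD and -0.84, 0 and -0.13 in control vertebrae, and 0.22, 0.24, -0.38 and 0.20 in mutant IVD and 0.08, -0.05 and -0.39 in mutant vertebrae. Its control pairs were higher in IVD by 0.66, 1.27 and 0.70 although the groups overlapped, and in the mutants the difference was 0.19 ± 0.31 (SE). For Car9 the difference between the tissue differences was -0.69 ± 0.46 (SE, limma unadjusted p = 0.162) and was not called. Ndrg1, a growth-restraining gene induced by stress, had an averaged difference of 0.59 ± 0.20 (SE, limma unadjusted p = 0.0121, adjusted p = 0.347). Its 5 probe sets gave 0.09 to 1.16, and without those of the x_at or s_at kind the difference was 0.34. Mxi1, an antagonist of Myc, had an averaged difference of 0.15. Over the 13 arrays Mxi1 had the narrowest range of all members (0.60). This is the range of the mean of its 2 probe sets, which had opposite averaged differences, -0.17 and 0.47.

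The secreted factors and the collagen hydroxylases did not follow the enzymes. Vegfa, the main growth factor for vessels, read -0.18, 0.40 and 0.07 in control IVD and -0.17, 0.57 and 0.04 in control vertebrae, and 0.10, 0.20, -0.42 and -0.12 in mutant IVD and 0.06, -0.10 and 0.17 in mutant vertebrae. The tissue difference of Vegfa was -0.05 ± 0.23 (SE) in controls and -0.10 ± 0.21 (SE) in mutants, and its 2 probe sets had opposite averaged differences, 0.48 and -0.64. Adm, the vessel-dilating peptide adrenomedullin, read 0.05, 0.12 and -0.32 in control IVD and 0.21, -0.27 and 1.52 in control vertebrae, and -0.47, -0.04, -0.06 and 0.41 in mutant IVD and 0.30, -0.50 and -0.04 in mutant vertebrae. A single array, control vertebrae 3, stood above the other 12 for Adm, and it is 1 of the 2 with neuronal transcripts. P4ha1, a catalytic subunit of the enzyme that hydroxylates collagen prolines, read -0.40, 0.40 and 0.05 in control IVD and 0.29, 0.34 and -0.23 in control vertebrae, and -0.28, 1.28, -0.17 and -1.09 in mutant IVD and -0.06, 0.71 and 1.04 in mutant vertebrae. The paralogue P4ha2 read -0.55, 0.43 and 0 in control IVD and -0.39, 0.74 and 0.13 in control vertebrae, and 0.25, -0.55, -1.19 and -1.12 in mutant IVD and -0.99, 0.11 and 0.25 in mutant vertebrae. P4ha1 had the widest range of all members (2.37), mostly within mutant IVD, and P4ha2 was lower in IVD in all 3 control pairs (-0.16, -0.31 and -0.13), and neither passed the test in any comparison.

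The 2 alpha subunits ran in opposite directions in the controls. Hif1a read 0.43, 0.68 and -0.01 in control IVD and 0.09, 0.07 and -0.48 in control vertebrae, and 0.03, 0.12, -0.61 and 0.04 in mutant IVD and -0.96, -0.12 and -0.13 in mutant vertebrae. It was higher in IVD in every control pair (0.34, 0.61 and 0.47), with an averaged difference of 0.39 ± 0.20 (SE, limma unadjusted p = 0.0719, adjusted p = 0.636). Epas1, which encodes HIF2 alpha and is known from endothelium, read -0.03, -0.98 and -1.35 in control IVD and 0.19, -0.75 and 0.24 in control vertebrae, and -0.01, -1.07, 0.23 and 0.39 in mutant IVD and -0.29, -0.78 and 0.07 in mutant vertebrae. It was lower in IVD in every control pair (-0.22, -0.23 and -1.59), but the groups overlapped and the mutant difference was 0.22 ± 0.40 (SE). The list mean of 9 endothelial markers was 0.23, -0.38 and -0.39 in control IVD and 0.16, -0.10 and 0.21 in control vertebrae, ordered within the pairs as Epas1 in 2 of 3, and its part in the Epas1 values was not tested.

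The comparison of genotypes asked what deletion of Tgfbr2 changed in each tissue. In IVD, 14 of 31 members were above 0 in mutants (2 of 10 enzymes, median -0.12, and 11 of 19 HIF targets, median 0.05), against 58.2% of all genes and a median of 0.04. None was called, against 0% of all genes, and Pfkfb4 alone (1 of 31) had an unadjusted p under 0.05, against 3.01% of all genes. Pfkfb4 was 0.54 ± 0.16 (SE) in mutant IVD relative to control IVD (95% interval 0.18 to 0.89, limma unadjusted p = 0.00642, adjusted p = 1), and it was the only member whose IVD arrays did not overlap between the genotypes, against 4.53% of all genes. Without mutant IVD 3 its difference was 0.43. Next by p were Hif1a at -0.47 ± 0.27 (SE) and Epas1 at 0.68 ± 0.40 (SE), both with overlapping groups. The direction of the enzymes rested on single arrays: without mutant IVD 3, 6 of 10 were above 0 with a median of 0.07 (20 of 31 members), without control IVD 3 none was, with a median of -0.20, and without the 4 arrays with liver transcripts 8 of 10 were, with a median of 0.28. With the mean of the Y-linked genes as a covariate the medians were -0.36 for the enzymes and -0.16 for the HIF targets.

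In vertebrae, 11 of 31 members were above 0 in mutants (3 of 10 enzymes, median -0.05, and 8 of 19 HIF targets, median -0.08), against 56.1% of all genes and a median of 0.03. None was called, against 0% of all genes, and Pfkp and Pfkfb4 (2 of 31) had an unadjusted p under 0.05, against 2.52% of all genes. Both were lower in every mutant than in every control array, and such separation in either direction held for 5.33% of all genes. The difference was -0.57 ± 0.21 (SE) for Pfkp (95% interval -1.03 to -0.10, limma adjusted p = 0.999) and -0.54 ± 0.17 (SE) for Pfkfb4 (95% interval -0.93 to -0.16, limma adjusted p = 0.999). Without mutant vertebrae 1, 18 of 31 members were above 0, and both medians were 0.05. The Y-linked mean as a covariate gave medians of -0.24 for the enzymes and -0.29 for the HIF targets.

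Whether the genotype difference itself differed between IVD and vertebrae was tested as an interaction. Of the members 16 of 31 were above 0, against 50.9% of all genes, with medians of -0.02 for the enzymes and 0.03 for the HIF targets. None was called, against 0% of all genes. Pfkfb4 (1 of 31) had an unadjusted p under 0.05, against 1.4% of all genes. The widest 95% intervals of the members in this test span more than 1 unit to either side, so changes of 2-fold were not detectable for such genes with this number of arrays.

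Lists of related genes were read in the same fits. The TCA cycle and the respiratory chain, which burn pyruvate in mitochondria, had 26 of 33 genes above 0 in the control tissue comparison (median 0.24) and 30 of 33 in that of the mutants (median 0.38), against 47.8% and 50.1% of all genes, and none was called in any comparison. Array by array the order did not hold in every control pair: the list averaged 0.68 in IVD against 0.63 in vertebrae of pair 1, 0.09 against -0.41 in pair 2 and -0.32 against -0.28 in pair 3. In mutant vertebrae relative to control vertebrae 4 of 33 were above 0, with a median of -0.22. Both arrays of pair 1, the 2 with the most liver transcripts, had the highest list means, and mutant vertebrae 1 had the lowest (-0.66). Of 24 other genes of glycolysis (isoforms and transporters of other tissues among them), 12 were above 0 in the controls and 12 in the mutants, with medians of -0.01 in both. Pkm, the pyruvate kinase gene, was the strongest of these, at 0.94 ± 0.31 (SE, limma unadjusted p = 0.0104, adjusted p = 1) in controls and 0.86 ± 0.21 (SE, limma unadjusted p = 0.00152, adjusted p = 0.141) on average. Of 45 other genes of the HIF pathway, 26 were above 0 in the controls (median 0.05) and 30 in the mutants (median 0.12). Among them Arnt2, a partner of HIF alpha proteins, was higher in mutant IVD than in mutant vertebrae by 0.71 ± 0.15 (SE, limma unadjusted p = 0.000375, adjusted p = 0.124) and than in control IVD by 0.47 ± 0.15 (SE, limma unadjusted p = 0.00684, adjusted p = 1). Of 6 genes of the pentose phosphate pathway, which branches off glycolysis, 4 were above 0 in either tissue comparison.

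**Figure D4:**
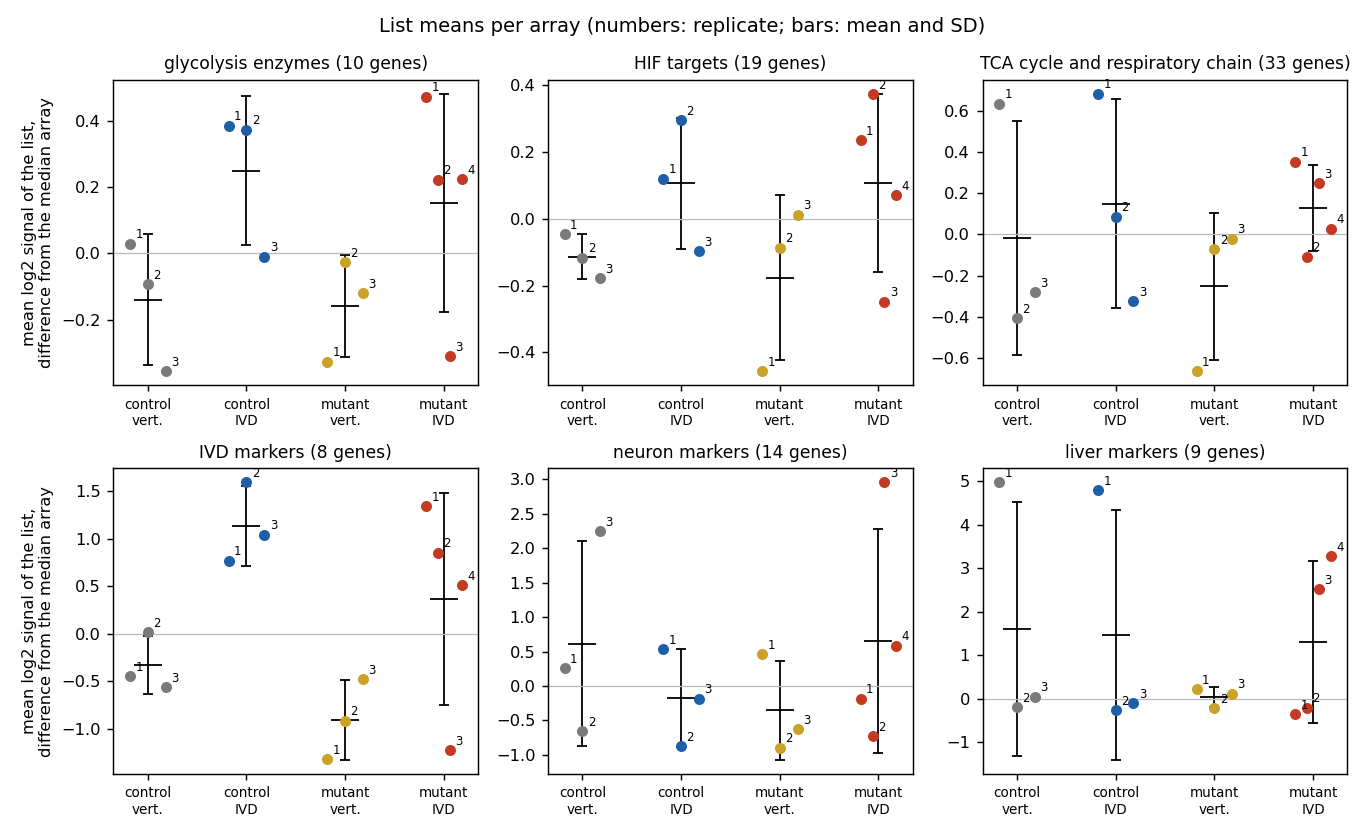
Each panel plots the mean log2 difference from the median array over the genes of 1 list, 1 point per array (numbered by replicate; grey control vertebrae, blue control IVD, yellow mutant vertebrae, red mutant IVD), with the group mean and SD in black; the scales of the panels differ, and "vert." stands for vertebrae. Mutant IVD 3 lies with the vertebrae for the glycolysis enzymes (-0.31), the HIF targets (-0.25) and the IVD markers (-1.23), and highest of all arrays for the neuron markers (2.95).

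The array means of the 2 main lists give the same comparisons array by array. The 10 enzymes averaged 0.38, 0.37 and -0.01 in control IVD against 0.03, -0.09 and -0.35 in control vertebrae, and the order held within each pair. In mutant IVD they averaged 0.47, 0.22, -0.31 and 0.22, and in mutant vertebrae -0.33, -0.03 and -0.12. The 19 HIF targets averaged 0.12, 0.30 and -0.10 in control IVD against -0.04, -0.12 and -0.18 in control vertebrae, and 0.24, 0.37, -0.25 and 0.07 in mutant IVD against -0.46, -0.09 and 0.01 in mutant vertebrae. In both lists 3 of 4 mutant IVD arrays lay above every mutant vertebrae array, and the exception was mutant IVD 3. The IVD marker mean, low in that array, moved with both lists there, and its part in their values was not tested.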

How the data were processed

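Gene expression was measured on 13 Affymetrix mouse expression arrays. Per the labels and the study's methods, the authors deposited log2 signals made by RMA in GeneSpring; each probe set had a median of 0 over the arrays, so no level remained. Of 45101 rows, 64 control probe sets were left out, and 34945 of the rest carried exactly 1 gene symbol in the platform annotation (932 carried several and 9160 none). Probe sets were averaged per gene (18193 genes; 68 probe sets for the 31 members).

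Groups came from the sample labels. The 4 groups were fitted together with limma 3.58.1 in R 4.3.3 (lmFit, contrasts, eBayes, two-sided), with Benjamini-Hochberg adjustment over all genes, and the procedure was tested on simulated data. Figures were drawn with Python 3.11.15. The study's methods say that vertebrae next to the IVD were collected after it, but not which arrays share an embryo. The main fit therefore had no block, and its tissue p-values leave out any such pairing. The design says that both control tissues came from the same mice, but not that the numbers mark the mouse. Same-numbered control arrays correlated at 0.83, 0.61 and 0.61 in their deviations and were taken as pairs. Mutant numbers gave -0.45, 0.25 and -0.20 and were not taken as pairs. Labels name the replicates as biological, and p-values measure the spread between these arrays. The members and lists were chosen with earlier results of these data known. Values in every array are printed for members that were called in any fit, for the 3 smallest p per comparison and direction, for the 8 widest ranges, and for Hif1a, Epas1, Slc2a1, Vegfa, Pgk1 and Ldha. The alternatives were other normalization, weights, summaries of probe sets, covariates, blocks and left-out arrays. No scan dates were in the values, so batches were not tested. Promoter sequences were those of RefSeq on GRCm38.p6.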

Additional observations from a re-analysis of the deposited data

Results flagged for a closer look

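In mutant IVD, the group with 4 arrays, mutant IVD 3 lay far from the other 3 for 2 members. Its gap to the nearest other array was 0.946 of the group's range for Car9 (-0.38 against 0.20 to 0.24) and 0.873 for Hif1a (-0.61 against 0.03 to 0.12), above the 95% limit of Dixon's test for 4 values. Of 33 gene and list values tested in this way chance would mark about 1 in 20. In the same array the IVD markers averaged -1.23, the neuron markers 2.95 and the liver markers 2.51, and their part in these values was not tested.

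The genotype difference of Pfkfb4 differed between the tissues by 1.08 on the log2 scale, being 0.54 in IVD and -0.54 in vertebrae. The limma interaction test gave an unadjusted p of 0.000683 and an adjusted p of 1.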

How the results depend on the processing

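No result turned direction while called. Over all alternatives, 24 of 31 members kept 1 sign in every fit of the averaged tissue comparison, 21 in the control and 20 in the mutant tissue comparison, but only 12 in the comparison of mutant with control IVD, 9 in that of mutant with control vertebrae and 12 in the interaction. The number of genes called moved widely, and the cause was not tested. For the control tissues it was 0 in the main fit, 66 with the replicate block as a random block (mouse), 65 with the mouse as a fixed replicate block, 2 with only the groups compared, 1 with array weights, 1 with the liver mean as a covariate, 3 without the 4 arrays with liver transcripts and 5 without the 2 arrays with neuronal transcripts; the block called no member and changed no other call of a member in this comparison. For the mutant tissues the count was 5, and 0 with only the groups compared, 1 with the number of the array as a fixed replicate block, 3 with quantile normalization, 2 with a variance trend and robust estimation, 54 with array weights, 0 with the unequal variance test, 9, 11 and 71 with the liver, erythroid and neuron means as covariates, 41 without the liver arrays, 81 without the neuronal arrays, and 1 to 109 when 1 array was left out (109 without mutant IVD 3). For the averaged comparison it was 50, and 9 with the number of the array as a fixed replicate block, 32 with quantile normalization, 215 with array weights, 22 with the probe set median, 31 with single probe sets, 161 with the neuron mean and 30 with the mean of the Y-linked genes as a covariate, 80 without the liver arrays, 156 without the neuronal arrays, and 7 to 206 when 1 array was left out (206 without mutant IVD 3). Members called in the mutant tissues rose from 0 to 1 (Pfkp) with array weights, single probe sets, the erythroid mean, the neuron mean and without the neuronal arrays, and ranged from 0 to 2 when 1 array was left out. In the averaged comparison they fell from 1 to 0 with the number of the array as a fixed replicate block, quantile normalization, the probe set median and without the liver arrays, were 2 without the neuronal arrays, and ranged from 0 to 2 when 1 array was left out. The median of the glycolysis enzymes between mutant and control IVD was 0.28 without the liver arrays, and in the interaction it was 0.27 with the neuron mean as a covariate and 0.26 without the neuronal arrays, while the HIF target median there was 0.30 with the neuron mean. Leaving out the neuronal arrays and the averaged comparison were chosen after seeing the data. The methods' unequal variance test called no gene in any of the 4 group comparisons after adjustment. Signal over background is unknown, and 3 or 4 arrays a group limit the precision.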
